A study of Mus musculus with 6 samples.

Results

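The BTG/TOB genes encode a small family of antiproliferative proteins. All members share an N-terminal BTG domain, and the TOB proteins carry a longer C-terminal tail. The domain binds CNOT7 and CNOT8, the deadenylase subunits of the CCR4-NOT complex, which shortens the poly(A) tail of mRNAs. The family's proteins link this enzyme to mRNAs or to poly(A)-binding protein, and raised levels of them slow the cell cycle in many cultured cells. The members described here are Btg1, Btg2, Btg3, Tob1 and Tob2. They were selected on their exact symbols, 5 of the 43283 gene rows in the table. The set was proposed with earlier results of these data known, the TPM of Btg2 among them, so the values and p-values of the members are given as a description. All 5 members passed the filter for testing, 1 TPM or more in at least 3 libraries, as did 12781 genes in all.

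RNA was sequenced from muscle stem cells, the cells beside the muscle fibre from which adult muscle regenerates. The treated cells were cultured for 24 h with prostaglandin E2 (PGE2), a lipid signal made during inflammation, and the control cells for 24 h with DMSO, its solvent (Vehicle), with 3 libraries in each group. Both groups came from hindlimb muscle of female C57BL/6 mice aged 8 to 12 weeks per the sample labels (2 to 4 months per the series' text). Both were sorted by flow cytometry for α7-integrin and CD34 and against CD45, Sca1, CD31 and CD11b, and both were kept in medium with 20% fetal bovine serum. Between 5000 and 10000 cells went into an RNA preparation, and the cDNA was amplified before library construction. The submitters call the libraries biological triplicates, but give no separate animal, sort or culture for each, so a p-value sets the groups against the scatter of these libraries, part of which may be technical. Levels are in TPM, a share of the library corrected for transcript length, which allows levels of different genes to be compared. The read depth behind a TPM value cannot be read from it and is unknown here.

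The libraries differed in how many genes they detected. Genes above 0 numbered 15400, 16558 and 17710 in PGE2 1, 2 and 3, against 19677, 18201 and 16446 in Vehicle 1, 2 and 3. The 8 myogenic markers, Pax7, Myod1 and Des among them, were all tested and summed to 449 to 611 TPM with PGE2 and 576 to 656 TPM with Vehicle. Of the 7 leukocyte markers, Cd52, Coro1a and Cd74 were listed at 0 in every library, and the list summed to 5.44 to 8.25 TPM with PGE2 and 1.28 to 7.84 TPM with Vehicle. The 6 endothelial markers, Cldn5 at 0 throughout, summed to 3.52 to 17.4 TPM with PGE2 and 3.06 to 6.46 TPM with Vehicle. The highest sum came with Emcn at 15.27 TPM in PGE2 3, against at most 0.87 TPM in the other libraries. The 6 fibro-adipogenic markers summed to 37.5 to 45.9 TPM with PGE2 and 18.7 to 31.5 TPM with Vehicle, without overlap. In PGE2 3 this gap rests on Col1a1, at 14.43 TPM there and at most 0.44 TPM in the other libraries. Col3a1 alone overlapped, at 24.94 to 36.45 TPM with PGE2 and 15.31 to 28.09 TPM with Vehicle. Most of the fibro-adipogenic sum was Col3a1, a collagen, and none of the 6 was at 0 in all libraries. Pdgfra lay between 0 and 0.82 TPM with PGE2 and between 0 and 1.45 TPM with Vehicle. Dcn reached at most 1.37 TPM and Lum at most 0.21 TPM in any library. Ly6a was higher, at 0, 13.55 and 0 TPM in PGE2 1, 2 and 3. In Vehicle 1, 2 and 3 Ly6a had 2.22, 3.38 and 7.92 TPM. The part of these markers in the results on the family was not tested. In bulk RNA, fewer cells of a type and less RNA per cell cannot be told apart.

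The members lie on 5 chromosomes of the mouse genome (GRCm38, the build mm10; positions from the GENCODE M21 annotation). Btg1 (ENSMUSG00000036478) spans chr10:96617006-96622809 on the plus strand, and Tob1 (ENSMUSG00000037573) spans chr11:94211454-94215495 on the plus strand. Btg2 (ENSMUSG00000020423) spans chr1:134075170-134079120, Btg3 (ENSMUSG00000022863) chr16:78332637-78377192 and Tob2 (ENSMUSG00000048546) chr15:81848272-81858796, all on the minus strand. The coding sequences have 171 codons in Btg1, 158 in Btg2 and 252 in Btg3, and are longer in the TOB genes, with 362 codons in Tob1 and 345 in Tob2. The transcript used for Btg3 has 5 exons, and those of the other members have 2. The 3′ UTRs, where many instability elements of short-lived mRNAs lie, also differed. The pentamer ATTTA, the core of AU-rich elements, occurred 11 times in the 4166 bases of the Btg1 3′ UTR, more often than in 95.4% of 20619 annotated genes. It occurred 5 times in the 2199 bases of Btg2, 4 times in the 439 bases of Btg3, 3 times in the 767 bases of Tob1 and 4 times in the 2457 bases of Tob2, against a median of 1 over all genes. These counts are not corrected for length, and the median 3′ UTR has 797 bases. Per kilobase there were 2.64 in Btg1, 2.27 in Btg2, 9.11 in Btg3, 3.91 in Tob1 and 1.63 in Tob2. Over all 3′ UTRs the value was 1.94, so Btg3 was the densest member and Tob2 lay below the background.

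PGE2 signals through receptors that can raise cyclic AMP, and the transcription factor CREB, which acts downstream of cyclic AMP, binds the cyclic AMP response element (CRE). The promoters of the members were therefore searched for its letters in the 250 bases before the RefSeq start (GRCm38.p6), over 6 promoters for 5 members, since Btg3 has 2. The searched motifs were the palindrome TGACGTCA, the half-site TGACG or its reverse complement CGTCA, and a TATA box, TATAAA on the gene's strand. The half-site was in 3 of the 6 promoters, those of Btg1, Btg2 and Tob1, and in 17.8% of 32851 mouse promoters. The full palindrome was in the Btg2 promoter alone among the 6, and in 1.55% of all promoters. These 3 promoters are shown because they hold the motif, 5′ to 3′ on the gene's strand, with the CRE palindrome or half-site in capitals. The windows are chr10:96616751-96617000 (plus strand) for Btg1, chr1:134079156-134079405 (minus strand) for Btg2 and chr11:94211204-94211453 (plus strand) for Tob1.
Btg1: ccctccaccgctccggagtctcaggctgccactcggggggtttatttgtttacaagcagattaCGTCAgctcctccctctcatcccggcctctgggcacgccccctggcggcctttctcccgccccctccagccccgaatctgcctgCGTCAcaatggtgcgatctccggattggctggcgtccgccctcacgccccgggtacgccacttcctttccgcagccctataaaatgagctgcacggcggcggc
Btg2: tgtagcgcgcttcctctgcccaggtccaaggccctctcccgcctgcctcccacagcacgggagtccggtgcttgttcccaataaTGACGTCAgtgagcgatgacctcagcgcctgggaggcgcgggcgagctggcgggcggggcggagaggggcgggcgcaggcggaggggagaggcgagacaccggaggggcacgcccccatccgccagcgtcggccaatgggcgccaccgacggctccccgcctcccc
Tob1: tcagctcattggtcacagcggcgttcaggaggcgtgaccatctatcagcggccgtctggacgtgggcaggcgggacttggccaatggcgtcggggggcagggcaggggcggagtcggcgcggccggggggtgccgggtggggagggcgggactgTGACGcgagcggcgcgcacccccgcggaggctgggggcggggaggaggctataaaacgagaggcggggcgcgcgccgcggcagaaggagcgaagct

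Counted back from the RefSeq start, the palindrome of Btg2 began at position -166, and it contains both of the half-sites found there, at -166 and -163. The half-sites of Btg1 began at -187 and -103, and that of Tob1 at -96. Btg1 and Tob1 also share a TATA box, at -26 in Btg1 and -47 in Tob1, which 7.59% of all promoters hold. A match of letters is a description of the window and was not measured as a bound site here. No match was found in the windows of Btg3 and Tob2. The Tob2 window, chr15:81858327-81858576, lies inside the GENCODE span of the gene. The bases before the GENCODE start of Tob2 were therefore not searched. The Btg3 window chr16:78376811-78377060 also lies inside the span of its gene.

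The family was expressed at very different levels, and Btg3 was its most abundant transcript in most libraries. Over all 6 libraries, mean levels ran from 112.6 TPM for Btg3 through 36.7 for Btg1, 23.9 for Tob1 and 11.2 for Tob2 to 5.64 TPM for Btg2. Among the tested genes, the level of Btg3 was at the 91.9th percentile and that of Btg2 at the 37.1st. Some steps of this order held in every library and others did not. Btg1 exceeded Tob1, Tob2 and Btg2 in 6 of 6 libraries, and Tob1 exceeded Btg2 in 6 of 6. Btg3 exceeded Btg2 and Tob2 in 6 of 6 libraries, but it exceeded Btg1 and Tob1 in 5, with PGE2 1 as the exception for both. Tob1 exceeded Tob2 in 5 of 6 libraries, with Vehicle 2 as the exception. Tob2 exceeded Btg2 in 4 of 6, so these neighbours at the low end were not separated beyond their spread. Btg4, the family member known from oocytes, was listed at 0 in all 6 libraries.

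**Figure D1:**
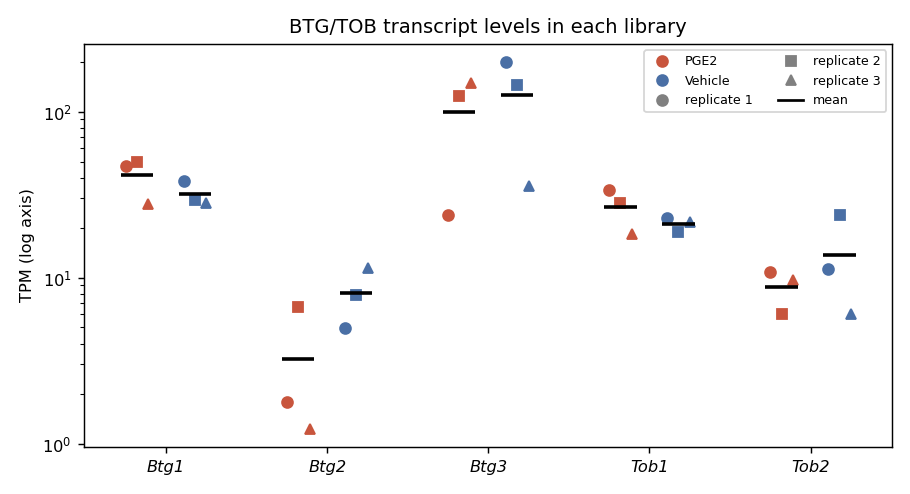
TPM of the 5 BTG/TOB genes in each library on a log axis, with PGE2 left of Vehicle for each gene, 1 point per library and a bar at each group's mean (n = 3 libraries per group). Btg1 and Tob1 form tight groups between 18.3 and 49.7 TPM, while Btg3 runs from 23.8 to 198 TPM and Btg2 from 1.23 to 11.4 TPM.

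No member of the family passed the test of PGE2 against Vehicle. By limma on log2(TPM + 1) with Benjamini-Hochberg adjustment over the 12781 genes, 0 of 5 members passed an adjusted p of 0.05, beside 0 of 12781 genes in the whole table (0%). At an unadjusted p under 0.05 the members numbered 0 of 5, beside 464 of all tested genes (3.63%). With 1 library left out, the count over all tested genes ran from 314 without Vehicle 3 to 979 without PGE2 1. No member had groups that did not overlap, beside 8.01% of all tested genes. The fitted log2 change was above 0 for 2 members, Btg1 and Tob1, and below 0 for 3, Btg2, Btg3 and Tob2. The members' median log2 change was -0.39, beside -0.07 over all tested genes. That median is the value of Btg3 alone, which was 0.43 without PGE2 1 and 0.09 without Vehicle 1. With these 3 against 3 libraries the intervals are wide: the median 95% half-width over the 8370 genes that averaged at least 5 TPM was 1.02 on the log2 scale.

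Btg2, an immediate early gene and p53 target first found among transcripts induced by nerve growth factor in rat cells and by a phorbol ester in mouse cells, had the largest fitted change of the 5. Its levels were 1.78, 6.63 and 1.23 TPM in PGE2 1, 2 and 3, against 4.98, 7.82 and 11.4 TPM in Vehicle 1, 2 and 3. PGE2 1 and 3 lay below every Vehicle library, whereas PGE2 2 lay within the Vehicle range, so the groups overlapped. Btg2 averaged 3.21 ± 2.97 TPM with PGE2 and 8.06 ± 3.21 TPM with Vehicle (SD, n = 3 each). The log2 change was -1.26 ± 0.62 (SE), with a 95% confidence interval of -2.65 to 0.12, unadjusted p = 0.0701 and adjusted p = 1.00 by limma. Without PGE2 2, the log2 change was -1.80 (unadjusted p = 0.0129 by limma, adjusted p = 1.00), the most extreme of the fits with 1 library left out. It was -1.07 without PGE2 1, -0.91 without PGE2 3, -1.53 without Vehicle 1, -1.25 without Vehicle 2 and -1.01 without Vehicle 3. The smallest unadjusted p of these other fits by limma was 0.068, without Vehicle 1. Because Btg2 is low, the added pseudocount weighs on its log2 change. In place of -1.26, it was -1.59 with a pseudocount of 0.1 and -0.70 with a pseudocount of 5. Within a group, the log2 spread of Btg2 was wider than that of most genes, at the 75.9th percentile of the 8370 genes.

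Btg1 and Tob1 varied least among the members and moved together over the libraries. Btg1, which favours the exit of myoblasts from the cell cycle in quail cultures, had 46.8, 49.7 and 27.9 TPM in PGE2 1, 2 and 3, against 38.1, 29.5 and 28.3 TPM in Vehicle 1, 2 and 3. Its mean was 41.5 ± 11.8 TPM with PGE2 and 31.9 ± 5.37 TPM with Vehicle (SD, n = 3 each). PGE2 1 and 2 lay above all Vehicle libraries and PGE2 3 lay below them. The log2 change of Btg1 was 0.34 ± 0.35 (SE), with a 95% confidence interval of -0.45 to 1.12 (limma, unadjusted p = 0.362, adjusted p = 1.00), and it was 0.59 without PGE2 3 and 0.19 without PGE2 2.

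Tob1, named as a transducer of the receptor ErbB2 and known from quiescent T cells, showed a similar pattern. It had 33.6, 28.2 and 18.3 TPM in PGE2 1, 2 and 3, against 22.8, 18.7 and 21.6 TPM in Vehicle 1, 2 and 3. Again PGE2 1 and 2 were the 2 highest libraries and PGE2 3 was the lowest. Its mean was 26.7 ± 7.73 TPM with PGE2 and 21.1 ± 2.12 TPM with Vehicle (SD, n = 3 each), and its log2 change was 0.29 ± 0.37 (SE), with a 95% confidence interval of -0.52 to 1.11 (limma, unadjusted p = 0.444, adjusted p = 1.00). The ratio of Btg1 to Tob1 stayed in a narrow band, 1.39, 1.76 and 1.52 in PGE2 1, 2 and 3, against 1.67, 1.57 and 1.31 in Vehicle 1, 2 and 3. On the log2 scale the levels of both genes correlated with a Pearson r of 0.90 over the 6 libraries, given as a description, since the points share their libraries. This was the highest r of any member pair, and the others ran from -0.57 (Btg3 and Tob1) to 0.31 (Btg3 and Tob2). Without PGE2 3 the log2 change of Tob1 was 0.53, and without PGE2 1 it was 0.11. The pooled log2 SD of Btg1 was at the 22.7th percentile of the 8370 genes and that of Tob1 at the 17.7th.

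**Figure D2:**
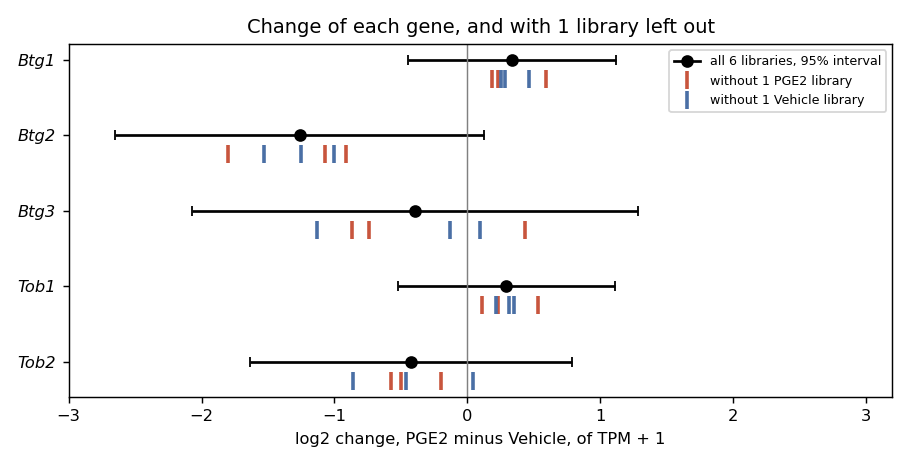
Fitted log2 change, PGE2 over Vehicle, on the log2(TPM + 1) scale for each member, with 95% confidence intervals from limma and a tick for each of the fits that leave out 1 library (n = 3 libraries per group in the full fit). Every interval crosses 0, and that of Btg2 runs from -2.65 to 0.12.

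Tob2, the closest relative of Tob1, was set apart by 1 library. It had 10.8, 6.02 and 9.65 TPM in PGE2 1, 2 and 3, against 11.3, 23.7 and 6.04 TPM in Vehicle 1, 2 and 3. Vehicle 2 lay above all others, and the remaining 5 libraries mixed between the groups. The mean was 8.83 ± 2.50 TPM with PGE2 and 13.7 ± 9.07 TPM with Vehicle (SD, n = 3 each). The log2 change of -0.42 ± 0.54 (SE), with a 95% confidence interval of -1.63 to 0.79 (limma, unadjusted p = 0.454, adjusted p = 1.00), was 0.047 without Vehicle 2. A non-coding gene on the other strand, Gm49476, overlaps Tob2, and 160 of the 240 runs of 50 bases in its transcript are the reverse complement of Tob2 sequence. No gene row carries the symbol Gm49476, so no level can be given for it. Whether the counting used strand is not given in the sources used here.

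Btg3, a p53 target whose protein binds the factor E2F1 in human cells, had the highest level and the widest spread of the family. It had 23.8, 125 and 149 TPM in PGE2 1, 2 and 3, against 198, 145 and 35.4 TPM in Vehicle 1, 2 and 3. Each group thus held 1 low library, PGE2 1 and Vehicle 3, and these were also the libraries of their group with the fewest genes above 0. The mean was 99.2 ± 66.4 TPM with PGE2 and 126.0 ± 82.9 TPM with Vehicle (SD, n = 3 each). The log2 change was -0.39 ± 0.75 (SE), with a 95% confidence interval of -2.07 to 1.29 (limma, unadjusted p = 0.615, adjusted p = 1.00), and it was 0.43 without PGE2 1 and 0.09 without Vehicle 1. The log2 SD of Btg3 was 1.43 among the PGE2 libraries and 1.30 among the Vehicle libraries, against medians of 0.59 with PGE2 and 0.37 with Vehicle over the 8370 genes, which placed its pooled SD at the 94.1st percentile.

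The level of Btg3 is uncertain because the genome holds a near-identical copy of its coding sequence. Gm7334 (ENSMUSG00000044645) is a processed pseudogene on the plus strand, chr17:50698688-50699443. All 756 of its bases match bases 217 to 972 of the 1414-base Btg3 transcript, whose coding sequence starts at base 217. Every one of its 707 runs of 50 bases is also in Btg3, so reads from within this stretch fit both genes equally. Only the stretches of Btg3 outside it tell the genes apart. Gm7334 was listed with 57.9, 66.5 and 45.4 TPM in PGE2 1, 2 and 3, against 53.6, 44.0 and 26.5 TPM in Vehicle 1, 2 and 3. Its mean was 56.6 ± 10.6 TPM with PGE2 and 41.4 ± 13.7 TPM with Vehicle (SD, n = 3 each). Its share of the summed TPM of both genes, which is not a share of reads, was 70.9%, 34.7% and 23.4% in PGE2 1, 2 and 3. In Vehicle 1, 2 and 3 it was 21.3%, 23.3% and 42.8%. This share was largest in the libraries with the least Btg3, where low Btg3 raises it by arithmetic. Gm7334 itself was lowest in Vehicle 3.

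**Figure D3:**
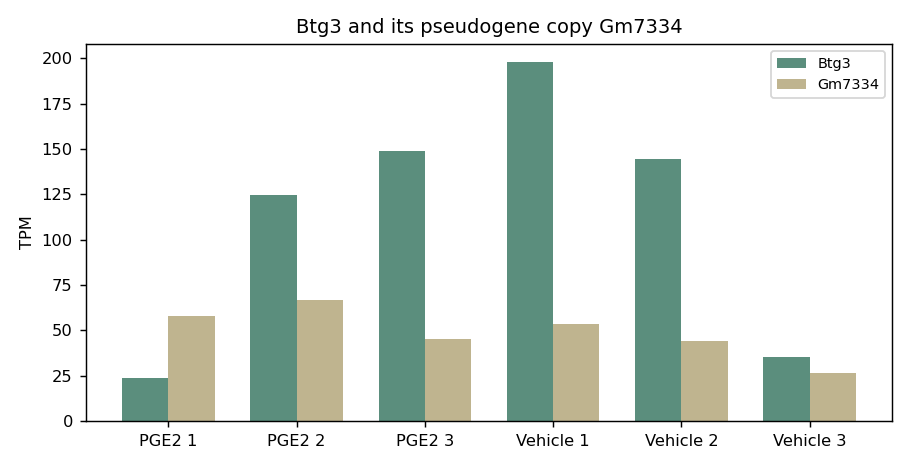
TPM of Btg3 and of its processed pseudogene Gm7334 in each library, as paired bars from 0, with the PGE2 libraries left of the Vehicle libraries. Gm7334 exceeds Btg3 in PGE2 1, and Btg3 is the higher in the other libraries, while Gm7334 itself stays between 26.5 and 66.5 TPM.

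Summed with its copy, Btg3 had 81.7, 191 and 194 TPM in PGE2 1, 2 and 3, against 252, 189 and 61.9 TPM in Vehicle 1, 2 and 3. The same 2 libraries were low, and the groups overlapped. TPM is corrected for length, and the Gm7334 transcript has 756 bases against 1414 for Btg3. By these lengths, a read assigned to Gm7334 adds more TPM than a read assigned to Btg3. The sum is therefore not the level that Btg3 would have with the reads of both. The log2 change of the sum, an alternative added after the values were seen, was 0.015 ± 0.53 (SE), with a 95% confidence interval of -1.17 to 1.20 (limma, unadjusted p = 0.978, adjusted p = 1.00), in place of -0.39 for Btg3 alone. For Btg1, only the processed pseudogene Gm14519 shared runs of 50 bases with the transcript used, 130 of its 263. It was listed at 0 in all 6 libraries. Btg1-ps1 and Btg1-ps2, annotated as protein-coding despite their names, shared no such run. Btg1-ps1 was listed at 4.76 TPM in PGE2 2 and at 0 elsewhere, and Btg1-ps2 at 0 in all 6 libraries. Cxadr, a cell adhesion receptor whose gene overlaps Btg3 on the other strand, had 16.2, 35.1 and 13.1 TPM in PGE2 1, 2 and 3, against 27.7, 26.1 and 34.7 TPM in Vehicle 1, 2 and 3, an order that differs from that of Btg3.

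Added over the 5 members, the family's level was 117, 215 and 206 TPM in PGE2 1, 2 and 3, against 275, 224 and 103 TPM in Vehicle 1, 2 and 3. The mean was 179 ± 54.4 TPM with PGE2 and 201 ± 88.6 TPM with Vehicle (SD, n = 3 each), a log2 ratio of -0.16 that lies within the spread between libraries. Btg3, counted here without its copy Gm7334, was the largest part of the sum in 5 of 6 libraries. It made up 20.4%, 58.0% and 72.3% of the sum in PGE2 1, 2 and 3, against 72.0%, 64.5% and 34.5% in Vehicle 1, 2 and 3. Without Btg3, the other 4 members summed to 93.0, 90.6 and 57.1 TPM in PGE2 1, 2 and 3, against 77.2, 79.7 and 67.3 TPM in Vehicle 1, 2 and 3. That sum was lowest in PGE2 3, and its log2 ratio was 0.10. With Gm7334 and Btg1-ps1 added to the 5 members, the log2 ratio of the family sum was -0.027. Both of these alternatives were added after the values were seen. Btg2 was a small part of the family in every library. Its share was 1.52%, 3.08% and 0.597% in PGE2 1, 2 and 3, against 1.81%, 3.49% and 11.1% in Vehicle 1, 2 and 3.

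**Figure D4:**
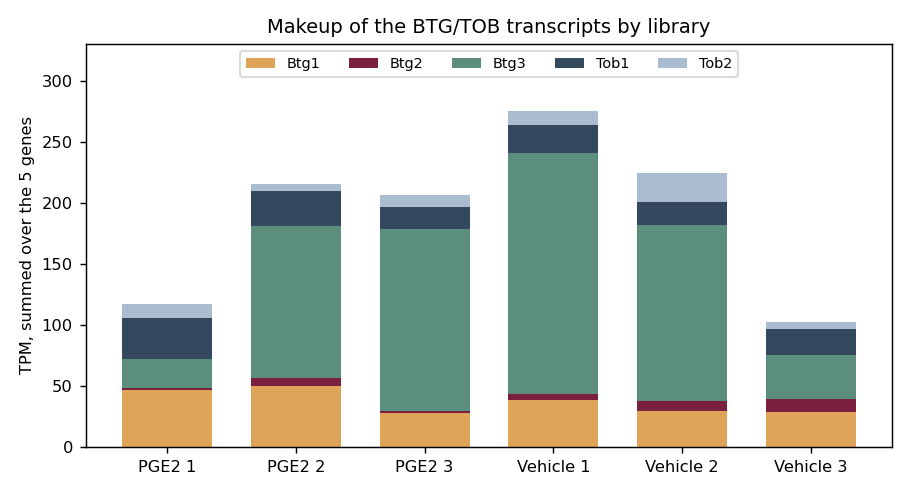
Summed TPM of the 5 members in each library as stacked bars from 0, coloured by gene, with the PGE2 libraries left of the Vehicle libraries. The sum runs from 103 to 275 TPM, and the Btg3 segment accounts for 20.4% to 72.3% of it.

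The enzymes that the family recruits were measured in the same cells. The CCR4-NOT list, the deadenylase complex itself, had 12 of 12 genes tested, with 4 fitted values above 0, 8 below, none past the adjusted threshold and a median log2 change of -0.10. Over all tested genes 5614 fitted values were above 0 and 7167 below, with a median of -0.07. The list's median ran from -0.26 without PGE2 1 to 0.0091 without PGE2 3, so its sign rests on single libraries. Cnot7, the deadenylase bound by the BTG domain, had 126, 45.7 and 108 TPM in PGE2 1, 2 and 3, against 123, 107 and 58.4 TPM in Vehicle 1, 2 and 3, with 1 low library in each group. Its log2 change was -0.10, with a 95% confidence interval of -1.08 to 0.88. Cnot8, its paralogue, was far lower, with 6.14, 14.0 and 5.59 TPM in PGE2 1, 2 and 3, against 10.5, 9.42 and 6.10 TPM in Vehicle 1, 2 and 3 (log2 change -0.09, interval -1.22 to 1.04). The Cnot7 level was thus the higher of the pair in every library. The smallest p-values of the list belonged to Cnot11, another subunit (log2 change -0.59, or -0.93 without PGE2 1 and -0.21 without PGE2 3), and Cnot6l, the other type of deadenylase in the complex, with -0.30.

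The 8 poly(A)-binding proteins and other deadenylases had 4 fitted values above 0 and 4 below, and none passed the adjusted threshold. Their median log2 change of 0.0067 was -0.35 without PGE2 1, -0.16 without Vehicle 3 and -0.17 with library weights. Pabpc1, the cytoplasmic poly(A)-binding protein that TOB proteins contact, was among the abundant transcripts. It had 4175, 1754 and 1661 TPM in PGE2 1, 2 and 3, against 2441, 2381 and 2280 TPM in Vehicle 1, 2 and 3. PGE2 1 was above and PGE2 2 and 3 were below all Vehicle libraries, and the log2 change was -0.04, with a 95% confidence interval of -0.99 to 0.91. The list's smallest p-values were those of Pabpc4 (log2 change -0.35, but -0.018 without PGE2 2) and Pan2 (0.53, but -0.13 without PGE2 1), another deadenylase at 6.18, 1.62 and 0.25 TPM in PGE2 1, 2 and 3, against 0.78, 2.22 and 0.35 TPM in Vehicle 1, 2 and 3.

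RNA-binding proteins that bring CCR4-NOT to chosen mRNAs had 15 of 16 genes tested, 3 with fitted values above 0 and 12 below, and a median log2 change of -0.17, which single libraries moved to between -0.34 (PGE2 1 left out) and -0.058 (PGE2 2 left out). None passed the adjusted threshold. An unadjusted p under 0.05 was found for 1 of 15, beside 3.63% of all tested genes, and groups without overlap for 1 of 15, beside 8.01%, so the list's counts are near the background. The gene in both counts was Cpeb4, a cytoplasmic polyadenylation element binding protein of a family in which CPEB3 is known to bind TOB. It had 13.1, 4.08 and 11.9 TPM in PGE2 1, 2 and 3, against 23.7, 21.1 and 44.2 TPM in Vehicle 1, 2 and 3, with every PGE2 library below every Vehicle library. Its log2 change was -1.58, with a 95% confidence interval of -2.71 to -0.45 (limma, unadjusted p = 0.0111, adjusted p = 1.00). Cpeb1 had a log2 change of -0.87 with overlapping groups, which was -1.56 without PGE2 1 and -0.31 without PGE2 3.

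The decapping list, the step after the tail is removed, had 10 of 10 genes tested, with 4 fitted values above 0, 6 below, a median of -0.10 (-0.50 without PGE2 1 and -0.024 without Vehicle 1) and none past the adjusted threshold. In 2 of the 10 the groups did not overlap, both lower with PGE2, beside 1024 of all tested genes (8.01%), of which 618 were lower. Ddx6, the helicase that joins CCR4-NOT to decapping, had 115, 106 and 103 TPM in PGE2 1, 2 and 3, against 187, 153 and 134 TPM in Vehicle 1, 2 and 3 (log2 change -0.53, limma, unadjusted p = 0.0823, adjusted p = 1.00). Dcp1b, a decapping cofactor, lay between 0.28 and 1.20 TPM with PGE2 and between 1.38 and 2.48 TPM with Vehicle. Its log2 change of -0.85 depends on the pseudocount at such low levels, and was -1.66 with a pseudocount of 0.1 and -0.29 with 5.

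Further partners of the family, among them SMAD factors that TOB proteins bind and the arginine methyltransferase Prmt1 that binds BTG1 and BTG2, had 8 of 9 genes tested, 3 above 0 and 5 below, with a median of -0.24 and none past the adjusted threshold. That median was -0.39 without PGE2 1, -0.12 without PGE2 3, -0.087 with a pseudocount of 5 and -0.015 with a filter of 5 TPM. Prmt1 had 39.4, 63.9 and 51.5 TPM in PGE2 1, 2 and 3, against 34.7, 68.5 and 65.6 TPM in Vehicle 1, 2 and 3, with a log2 change of -0.09 (95% confidence interval -0.90 to 0.73). Smad1, a signal carrier of bone morphogenetic proteins, had 27.4, 20.9 and 22.6 TPM in PGE2 1, 2 and 3. In Vehicle 1, 2 and 3 it had 32.9, 31.3 and 36.7 TPM (log2 change -0.50, limma, unadjusted p = 0.156, adjusted p = 1.00). Smad1 was the 1 of 8 tested genes of this list without overlap, beside 8.01% of all tested genes. Smad4, the common partner of the SMADs, had a log2 change of 0.56, which was 0.29 without PGE2 1. Hoxb9, a homeobox factor that binds BTG proteins, was listed at 0.

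Btg2 is itself an immediate early gene and a p53 target, and no gene of the lists of such genes passed the adjusted threshold. Of 17 other immediate early genes 16 were tested, with 9 fitted values above 0, 7 below and a median of 0.07. The median ran from -0.10 without PGE2 2 to 0.28 without Vehicle 3, and was -0.040 with a filter of 5 TPM. Ier3 had 16.6, 11.2 and 4.67 TPM in PGE2 1, 2 and 3, against 4.06, 3.34 and 4.87 TPM in Vehicle 1, 2 and 3 (log2 change 1.08, limma, unadjusted p = 0.0796, adjusted p = 1.00), and its log2 change was 0.72 without PGE2 1. Jun, a subunit of AP-1, had 67.0, 65.1 and 38.6 TPM with PGE2, against 79.8, 85.2 and 82.5 TPM with Vehicle. Its log2 change was -0.57, and -0.32 without PGE2 3. Groups without overlap were found for 1 of 16 tested genes of this list, Jun, beside 8.01% of all tested genes. Of 15 other p53 targets 13 were tested, with 2 fitted values above 0, 11 below and a median of -0.38, beside 5614 above, 7167 below and -0.07 over all tested genes. The p53 list's median was -0.17 without PGE2 2. Pmaip1, an apoptosis gene, had 5.56, 11.9 and 11.5 TPM in PGE2 1, 2 and 3. In Vehicle 1, 2 and 3 it had 13.0, 24.8 and 21.8 TPM (log2 change -0.99, limma, unadjusted p = 0.0577, adjusted p = 1.00). Among the p53 targets, 1 of 13 tested genes, Pmaip1, had groups without overlap, beside 8.01% of all tested genes. Cdkn1a, the cell cycle inhibitor p21, had a log2 change of -0.87 with overlapping groups, which was -0.41 without PGE2 1 and -1.33 without PGE2 3.

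**Figure D5:**
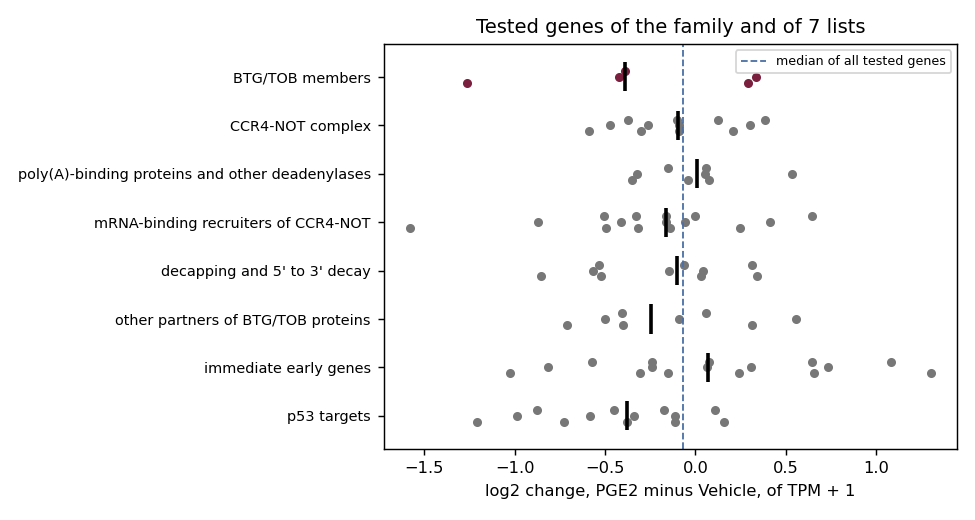
Fitted log2 change, PGE2 over Vehicle, of each tested gene in the family and in the 7 lists, with a black tick at each list's median and a dashed line at the median of all tested genes (-0.07). The list medians run from -0.38 for p53 targets to 0.07 for immediate early genes, which was -0.10 without PGE2 2, and no gene shown passed the adjusted threshold.

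The genes whose pattern over the 6 libraries was most like each member's were found among 7229 tested genes that averaged at least 5 TPM, leaving out predicted genes and pseudogenes by their symbols, by Pearson r on the log2(TPM + 1) scale. Each r rests on 6 points that share their libraries and is given as a description, with no p. Btg1 was followed most closely by Arntl, a core clock factor, and Ephx4, both at r = 0.99, with 24 genes at 0.95 or more. Ephx4 had 13.05, 13.51 and 0 TPM in PGE2 1, 2 and 3, against 3.27, 0 and 0.43 TPM in Vehicle 1, 2 and 3. It reached the mean of 5 TPM only through PGE2 1 and 2, so its r rests mainly on them. Tob1 was followed by Mthfd1, an enzyme of folate metabolism, and Rcbtb2, both at r = 0.98, with 14 genes at 0.95 or more. Btg2 was followed by Bzw1 (r = 0.98) and Rnf115 (r = 0.97), with 6 genes at 0.95 or more. Rnf115, a ubiquitin ligase, had 34.1, 45.3 and 33.1 TPM in PGE2 1, 2 and 3, against 43.2, 49.7 and 63.2 TPM in Vehicle 1, 2 and 3, the order of libraries seen for Btg2 but over a narrower span. Btg3 was followed by Tm2d3 and Caap1, both at r = 0.98, with 16 genes at 0.95 or more. Tm2d3 had 21.9, 45.7 and 54.4 TPM in PGE2 1, 2 and 3, against 62.8, 43.7 and 26.6 TPM in Vehicle 1, 2 and 3, low in PGE2 1 and Vehicle 3 as Btg3 was. Tob2 was followed by Usp53 (r = 0.99) and Pcmtd1 (r = 0.98), with 7 genes at 0.95 or more.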

How the data were processed

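The authors deposited 1 table of TPM values with 43283 gene rows and 1 column per library, and TPM was inferred from the values, since no header names the unit. STAR, RSEM and the mouse build mm10 appear in the submitters' processing notes, while their versions and the annotation are not given in the sources used. Values were analysed as log2(TPM + 1) with limma 3.58.1 in R 4.3.3 (mean trend, not robust, group as the only term, two-sided). A gene was tested where at least 3 of the 6 libraries reached 1 TPM, with Benjamini-Hochberg adjustment over all of them and a threshold of 0.05. The members and lists were chosen with earlier results of these data known. From each list the text names the 2 tested genes with the smallest p, besides Cnot7, Cnot8, Pabpc1, Prmt1 and Btg4, and the 2 genes most like each member. Positions, transcripts and pseudogene matches came from GENCODE M21 and promoters from RefSeq. The fit was tested on simulated data. No library pair was identical, and every column belonged to a sample. Alternatives were other pseudocounts, filters, scalings, priors and weights, a replicate block and each library left out.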

Additional observations from a re-analysis of the deposited data

How the results depend on the processing

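The log2 changes of Btg1 (0.19 to 0.59), Tob1 (0.11 to 0.53) and Btg2 (-1.80 to -0.70) kept their direction under every alternative run, and none of the members or of the genes named from the lists passed the adjusted threshold in any. Genes named for likeness, copies and markers were not refitted under the alternatives. Genes past that threshold in the whole table numbered 0 as reported, 1 with a robust prior and 0 to 2 with 1 library left out. With the replicate block, 0 genes passed and the Btg2 log2 change was -1.26 (limma, unadjusted p = 0.0856). Deviations of same-numbered libraries correlated at -0.06, -0.04 and 0.07, and those of differently numbered libraries at -0.05 to 0.09. Pairing by number is thus not evident, but these values cannot exclude it, since the labels do not say what a number stands for. With 1 library left out, log2 changes spanned -1.13 to 0.43 for Btg3, -0.86 to 0.047 for Tob2, -0.13 to 1.13 for Pan2, -0.42 to 0.34 for Cnot7, -0.47 to 0.13 for Cnot8, -0.47 to 0.19 for Pabpc1 and -0.40 to 0.087 for Prmt1. Signs also turned for Btg3 summed with Gm7334 (0.015, chosen after seeing the data), Pabpc1 with median-ratio scaling (0.014) and Pan2 with library weights (-0.077). The cause was not tested. The log2 ratio of the family sum was 0.07 without PGE2 1 and 0.13 without Vehicle 1, and -0.48 to 0.13 over all such fits. The all-gene median was -0.17 without PGE2 1. A count-based fit was not run, since the table holds no counts, and without read depth no detection limit can be given for low members such as Btg2.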
